A study of Mus musculus with 8 samples.

Results

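Apolipoproteins are the proteins that carry lipid through plasma, and 10 of their genes, Apoa1, Apoa2, Apoa4, Apoa5, Apob, Apoc1, Apoc3, Apoe, Apoh and Apom, are described here in mouse hepatocytes with and without the gene Vwa8. The genes were picked by their names, at a time when earlier results of these data were known. All 10 were measured, each by a single probe set, among 22180 genes. Each gene of the array was represented by the brightest, on average, of the probe sets assigned to that symbol alone.

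AML12 is a hepatocyte line derived from the liver of a mouse transgenic for human TGF-alpha, and VWA8 is an ATPase found in mitochondria. Vwa8 was deleted with CRISPR/Cas9, and 4 cultures of VWA8-null cells (knockout) were set beside 4 cultures of wildtype AML12 cells, each hybridised to 1 Affymetrix mouse array. According to the series' design text the cultures were separate and were differentiated, and both groups shared a DMEM/F12 medium that held FBS (10%), Penicillin/Streptomycin (1%), insulin and transferrin (each at 0.005 mg/ml), selenium (5 ng/ml) and the glucocorticoid dexamethasone (40 ng/ml). The number of clones behind the knockout cultures is not stated in the labels, so clonal differences cannot be told apart from the deletion, and p-values measure only the spread between these cultures.

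The 8 arrays had median log2 signals of 4.27 to 4.33, and gene values correlated with r of 0.993 to 0.995 within each genotype and 0.985 to 0.987 across genotypes. The deleted gene checked the labels. Vwa8 read 8.95 ± 0.0414 in wildtype and 5.18 ± 0.116 in knockout cells (mean ± SD, n = 4 each), a log2 fold change of -3.77 ± 0.0696 (SE). Its exact two-sided permutation p was 0.0286, the smallest that 4 arrays against 4 allow. Of 13 measured hepatocyte markers 12 rose, and their summed signal on the log2 scale ran from 14.22 to 14.28 in wildtype and from 14.74 to 14.83 in knockout arrays. One of the 12, Cyp2e1, was dim, with group means of 3.67 and 4.04, under the 4.08 that bounds the medians of 95% of sensory receptor genes. Over all genes 10.4% were called higher and 10.4% lower (limma adjusted p below 0.05). Among markers of other cells, 2 of 5 of cholangiocytes fell (Krt7 at -0.52 and Cftr at -0.92) and 1 of 8 of macrophages fell (Cd14 at -0.45). Of fetal liver markers 1 of 4 rose (Igf2 at 0.99), and none of 7 stellate and 6 endothelial markers passed. Medians above 4.08 were reached by 4 of the cholangiocyte, 4 of the macrophage, 2 of the fetal liver, 2 of the stellate and 1 of the endothelial markers. The dimmer ones cannot be told from no expression. The part of these marker shifts in the apolipoprotein changes was not tested. In bulk RNA, fewer cells of a type and less RNA per cell cannot be told apart.

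Liver and intestine make most plasma apolipoproteins. Apolipoprotein B is built into very low density lipoprotein (VLDL) as the particle forms and stays with it, whereas the smaller A, C and E proteins exchange between VLDL, its remnants and high density lipoprotein (HDL), where they activate or inhibit lipases and bind receptors. Several of the smaller genes sit in clusters, Apoa1, Apoc3, Apoa4 and Apoa5 side by side on mouse chromosome 9, and Apoe, Apoc1 and Apoc2 on chromosome 7. Transcription in the liver depends on hepatocyte nuclear factors such as HNF4A.

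Of the 10 apolipoprotein genes, 8 rose in the knockout and none fell, with rises between 1.27-fold (Apob) and 4.6-fold (Apoa4). Over all genes 20.9% were called in either direction, 10.4% higher and 10.4% lower, by the same rule, an adjusted p below 0.05 in limma with Benjamini-Hochberg adjustment over the 22180 genes. At an unadjusted limma p below 0.05 the counts were the same, 8 higher and 0 lower. For all 8 that rose, every knockout array lay above every wildtype array, as for 12.9% of all genes. Among the 10, 5 rose 2-fold or more, beside 0.987% of all genes, and 3 did without knockout replicate 2, where Apoc1 and Apoc3 both stood at 0.99 on the log2 scale. The median log2 fold change of the 10 was 0.97, against -0.003 over all genes. Apoa5 and Apom did not pass, and both were dim on all 8 arrays.

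**Figure D1:**
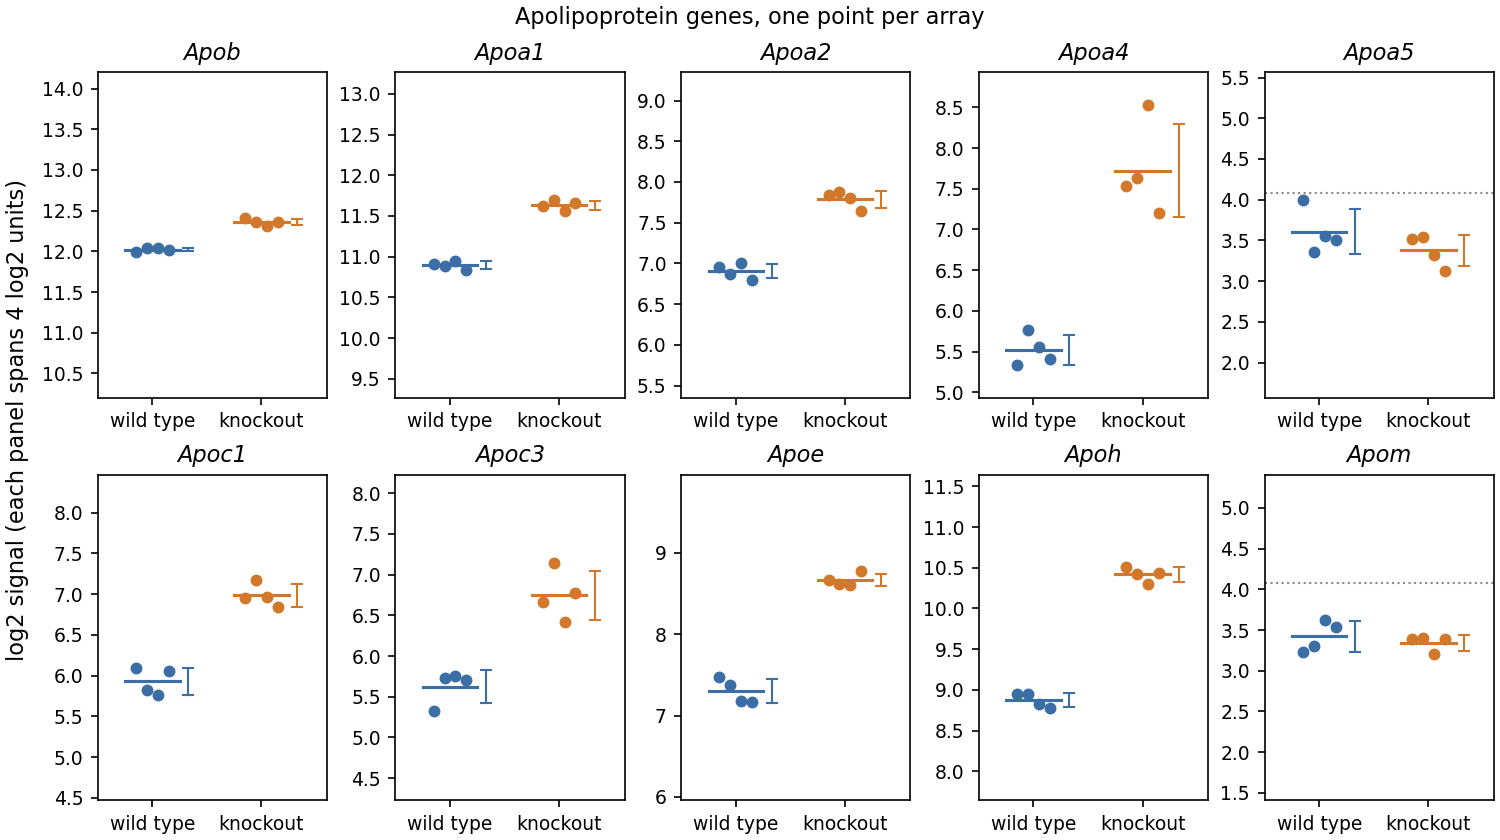
Log2 signal of the 10 apolipoprotein genes on the 4 wildtype (blue) and 4 knockout (orange) arrays, with 1 point per array, the mean as a bar and the SD beside it; each panel spans 4 log2 units and the dotted line at 4.08 is the 95th percentile of sensory receptor genes. The groups are apart in 8 panels, and those of Apoa5 and Apom overlap below the dotted line.

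Apob, the scaffold of VLDL and low density lipoprotein, was the brightest of the 10 and rose the least of those that passed. Its log2 signal was 11.99, 12.04, 12.04 and 12.02 in wildtype replicates 1 to 4 and 12.41, 12.36, 12.31 and 12.36 in the knockout replicates. The arrays of a genotype were within 0.10 of each other, and the 2 groups were separated by 0.27. The log2 fold change was 0.34 ± 0.0517 (SE), or 1.27-fold (limma adjusted p = 0.00153). The knockout mean was 1.19 below the highest value on any array, 13.55.

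The genes of the 2 major proteins of HDL both rose. Apoa1, which activates the cholesterol-esterifying enzyme LCAT, read 10.91, 10.89, 10.95 and 10.84 in wildtype and 11.62, 11.69, 11.56 and 11.66 in knockout arrays. All knockout arrays were above all wildtype arrays, and the log2 fold change was 0.73 ± 0.0557, or 1.66-fold (limma adjusted p = 3.13e-05). Apoa2, the other main HDL protein, gave 6.96, 6.87, 7.0 and 6.80 in wildtype and 7.84, 7.88, 7.80 and 7.64 in knockout cells. The groups were again apart, by 0.64, with a log2 fold change of 0.88 ± 0.0745, or 1.84-fold (limma adjusted p = 5.58e-05).

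Apoa4 showed the largest rise of the 10 and the largest spread. It encodes a protein of chylomicrons and HDL that is made mainly in the intestine and, in rodents, also in the liver. It read 5.34, 5.76, 5.56 and 5.41 in wildtype and 7.53, 7.63, 8.53 and 7.20 in knockout arrays. Knockout replicate 3 was the highest array, and the lowest knockout array still exceeded the highest wildtype array by 1.44. The log2 fold change was 2.20 ± 0.252, or 4.6-fold (limma adjusted p = 0.000312), and 1.93 ± 0.136 without knockout replicate 3 (adjusted p = 7.26e-05). Of all genes, 0.14% had a larger absolute change.

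As a check on cells of intestinal type, 2 of 8 enterocyte markers rose, beside 10.4% of all genes. They were Vil1, an actin-bundling protein of microvilli, by 0.67 and Rbp2, a retinol carrier, by 1.03 on the log2 scale. The summed log2 signal of the 8 ran from 10.07 to 10.20 in wildtype and from 10.86 to 10.95 in knockout arrays. Both were bright, with wildtype and knockout means of 8.52 and 9.19 for Vil1 and of 9.03 and 10.06 for Rbp2. The markers Fabp2, Lct, Sis, Cdx1 and Cdx2 did not pass. Their group means were between 2.60 and 3.93, below the level of 4.08 used further on to bound genes taken as silent. Anpep, an aminopeptidase shared with liver, did not pass either. The part of these 2 rises in the Apoa4 result was not tested.

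Of the genes of C apolipoproteins, small proteins that regulate lipolysis and the uptake of remnants, Apoc1 and Apoc3 both rose by a little over 2-fold. Apoc1 read 6.09, 5.82, 5.76 and 6.06 in wildtype and 6.95, 7.18, 6.97 and 6.84 in knockout arrays. The groups were separated by 0.74 and the log2 fold change was 1.05 ± 0.103, or 2.07-fold (limma adjusted p = 0.000127). Apoc3, an inhibitor of lipoprotein lipase, gave 5.32, 5.73, 5.75 and 5.70 in wildtype and 6.66, 7.14, 6.42 and 6.77 in knockout cells. Wildtype replicate 1 was the lowest, and the log2 fold change was 1.12 ± 0.157, or 2.18-fold (limma adjusted p = 0.000983), with 1.02 when that array was left out.

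Apoe, the ligand by which remnants bind their receptors, rose 2.58-fold. It read 7.47, 7.37, 7.18 and 7.17 in wildtype and 8.66, 8.62, 8.60 and 8.77 in knockout arrays. The knockout arrays spanned 0.17, and the groups were separated by 1.13. The log2 fold change was 1.37 ± 0.0829 (limma adjusted p = 8.37e-06).

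Apoh encodes beta-2-glycoprotein I, a phospholipid-binding plasma protein that is only loosely tied to lipoproteins, and had the smallest adjusted p of the 10. Its values were 8.95, 8.95, 8.83 and 8.78 in wildtype and 10.51, 10.42, 10.30 and 10.44 in knockout arrays. The separation of 1.34 was several times the range within either group. The log2 fold change was 1.54 ± 0.0695, or 2.90-fold (limma adjusted p = 1.97e-06).

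Apoa5 and Apom showed no change that the test could call. Apoa5, which raises lipolysis of triglyceride-rich particles, read 4.00, 3.36, 3.55 and 3.51 in wildtype and 3.52, 3.54, 3.32 and 3.13 in knockout arrays. The groups overlapped, and the log2 difference of -0.23 had a 95% interval from -0.56 to 0.10 (limma adjusted p = 0.346), and it was -0.10 without wildtype replicate 1, the highest array. Apom, a lipocalin of HDL that carries a bioactive sphingolipid, read 3.23, 3.30, 3.62 and 3.54 in wildtype and 3.39, 3.40, 3.20 and 3.39 in knockout arrays. Here too the groups overlapped, with a difference of -0.08 and an interval from -0.31 to 0.14 (limma adjusted p = 0.649).

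No measure of background came with the values, so genes of olfactory and vomeronasal receptors, which hepatocytes are not known to express, served as a guide to the signal of silent genes. Their 1394 medians over the 8 arrays had a median of 2.14 and a 95th percentile of 4.08. The 8 apolipoprotein genes that rose were above 4.08 on all 8 arrays. Apoa5 and Apom were above it on 0 of 8, and had medians of 3.51 and 3.39. A signal at that level cannot be told from no expression, so their intervals limit the change of the signal and not of the transcript.

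**Figure D2:**
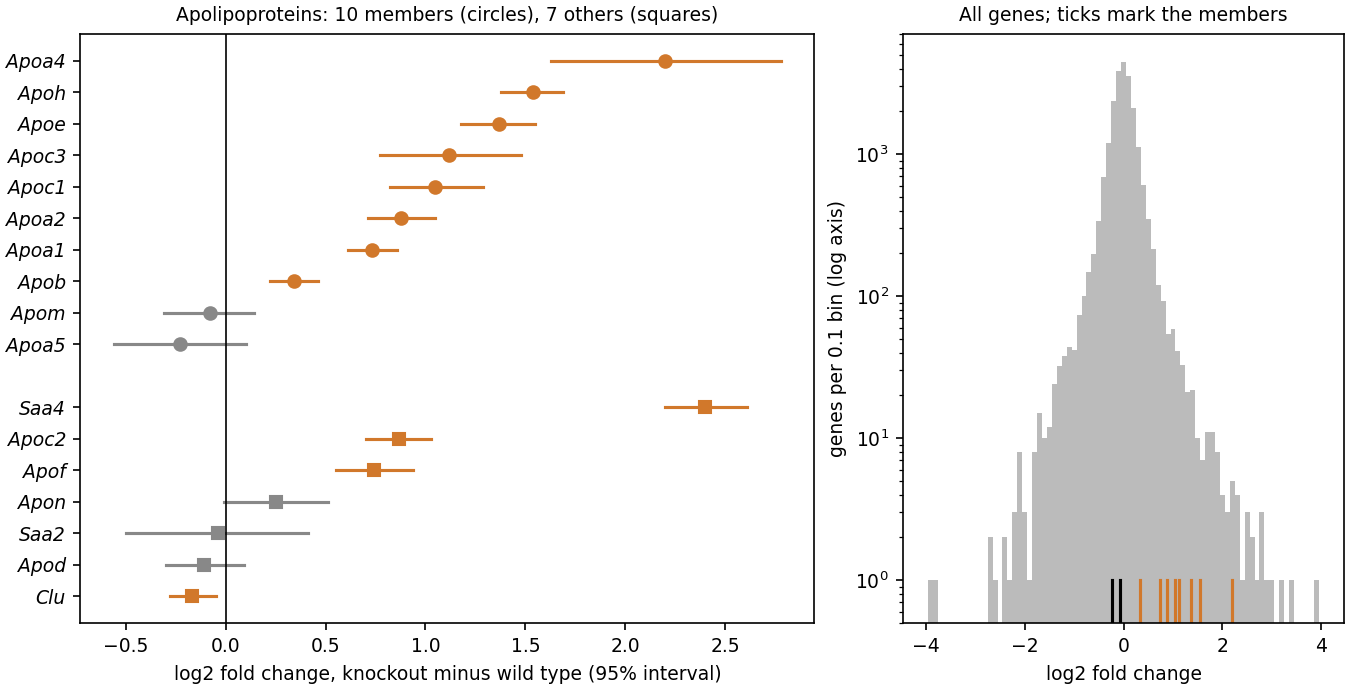
Left, log2 fold change (knockout minus wildtype) with 95% interval from limma for the 10 apolipoprotein genes (circles) and 7 other apolipoproteins (squares), orange where the adjusted p was below 0.05 and grey otherwise; right, the same quantity over all genes on a logarithmic count axis with the 10 marked as ticks. Changes run from -0.23 (Apoa5) to 2.20 (Apoa4), and Clu is the only called fall.

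The 4 genes of the chromosome 9 cluster lie next to each other with no other measured gene between, and the 3 of them above the dim range rose by different amounts. Along the chromosome in assembly GRCm38.p6 the order was Apoa1 at 0.73, Apoc3 at 1.12, Apoa4 at 2.20 and the dim Apoa5 signal at -0.23 on the log2 scale. None of the 5 measured genes on either side passed (limma, 0 higher and 0 lower of 10), beside 10.4% of all genes each way. Their median change was 0.06. Nearest to the cluster, the kinase gene Sik3 stood at 0.07 and Zpr1, a zinc finger protein gene, at -0.15.

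Whether clustered genes changed by different amounts was tested on the log2 difference between 2 genes within each array, over 7 pairs, with exact two-sided permutation tests adjusted over the 7. Only the change of such a difference between genotypes is read, since signals of different probe sets are not on one scale. For Apoa1 minus Apoa4 it was 5.58, 5.13, 5.39 and 5.43 in wildtype and 4.09, 4.06, 3.04 and 4.46 in knockout arrays, a shift of -1.47 ± 0.32 (SE), so the Apoa4 signal rose more. The Apoa1 signal was the higher on every array, and whether brightness affects the size of a change in signal was not tested. All 6 pairs within the chromosome 9 cluster gave the smallest exact p that 4 against 4 arrays allow, 0.0286 (adjusted p = 0.0333). The 3 pairs with Apoa5 compare a partner with a signal that cannot be told from no expression, so their shifts follow the partner and say nothing of the Apoa5 transcript. They were 0.96 ± 0.163 for Apoa1 minus Apoa5, 2.43 ± 0.363 for Apoa4 minus Apoa5 and -1.35 ± 0.277 for Apoa5 minus Apoc3. Leaving out any 1 wildtype array put these 3 tests and that of Apoa1 minus Apoa4 at an adjusted p of 0.05, which is not below the threshold. With so few arrays an exact p takes few values, and its adjustment also depends on the other pairs, so this step says little of the shifts. The shifts were then -1.55 to -1.41 (Apoa1 minus Apoa4), 0.84 to 1.04 (Apoa1 minus Apoa5), 2.24 to 2.59 (Apoa4 minus Apoa5) and -1.47 to -1.12 (Apoa5 minus Apoc3).

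The 2 pairs with Apoc3 and another gene that rose were less secure. Apoa1 minus Apoc3 shifted by -0.39 ± 0.165, and the permutation call was lost without wildtype replicate 1 (-0.28, adjusted p = 0.0800), 2 (-0.43, 0.0571), 3 (-0.42, 0.0800) or 4 (-0.43, 0.0800), or knockout replicate 2 (-0.28, 0.0571). Apoa4 minus Apoc3 shifted by 1.08 ± 0.399, a call lost without wildtype replicate 1 (1.12, permutation adjusted p = 0.1), 2 (1.13, 0.0571), 3 (1.05, 0.1) or 4 (1.02, 0.1), and the shift was 0.70 without knockout replicate 3. Apoe and Apoc1, the pair on chromosome 7, differed by 0.31 ± 0.137 (exact permutation p = 0.0571, adjusted p = 0.0571), and their groups overlapped.

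On chromosome 7, 3 apolipoprotein genes in a row among those measured rose, Apoc2 at 0.87, Apoc1 at 1.05 and Apoe at 1.37, between genes that did not. Of the 10 nearest measured genes around Apoc1 and Apoe, Apoc2 was the only one higher and 3 were lower, beside 10.4% of all genes each way. Their median change was -0.16. The 3 were Relb, an NF-kappa-B subunit, at -0.71 ± 0.0671, Bcl3, an NF-kappa-B cofactor, at -0.63 ± 0.0974, and Nectin2, an adhesion molecule, at -0.61 ± 0.0798, all named after their values were seen. Tomm40, next to Apoe and encoding the import pore of the outer mitochondrial membrane, stood at -0.16 (limma adjusted p = 0.0537).

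**Figure D3:**
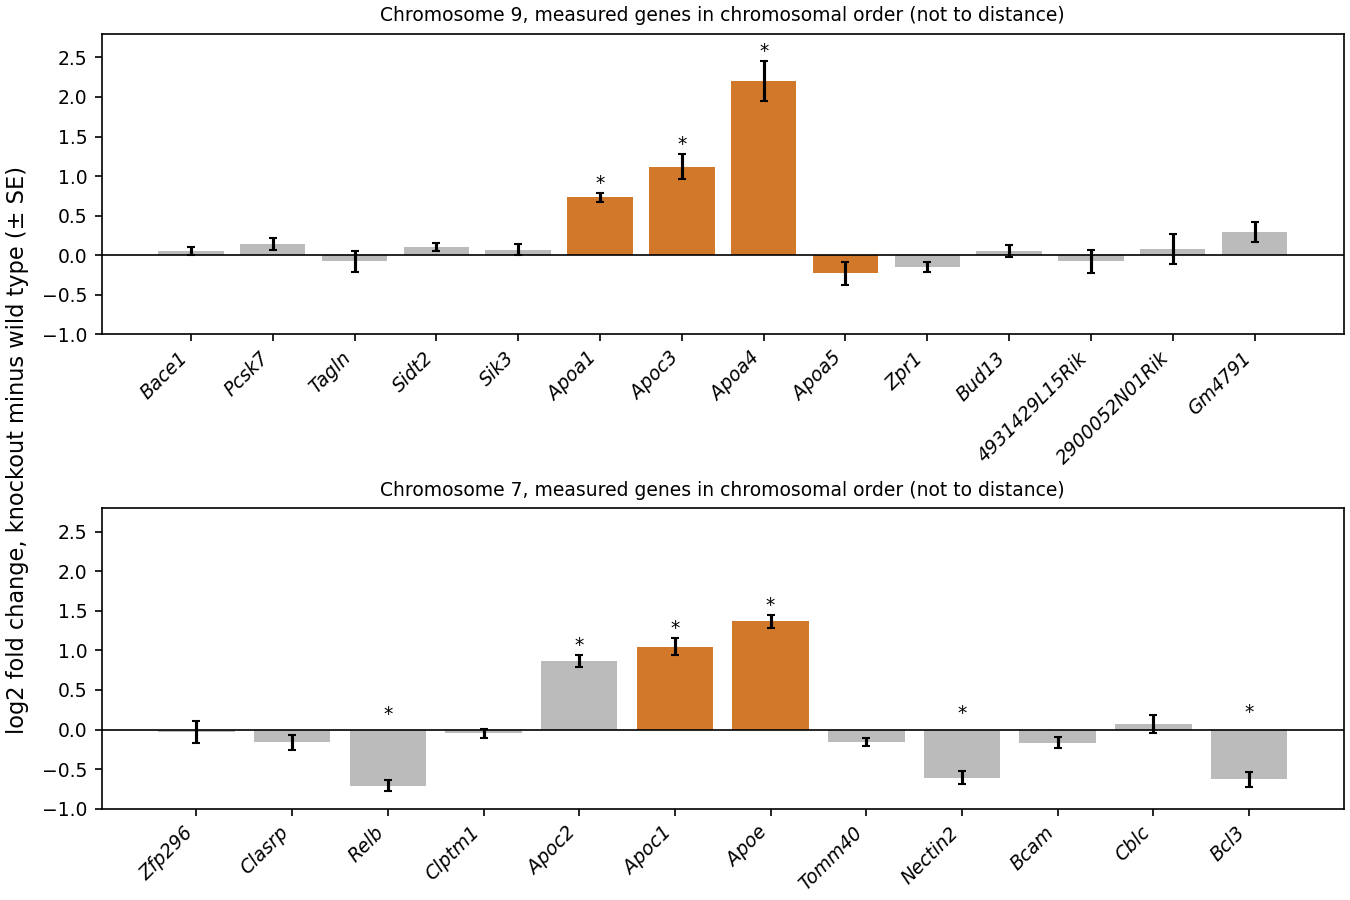
Log2 fold change (knockout minus wildtype, ± SE from limma) of the measured genes around the chromosome 9 and chromosome 7 clusters, in chromosomal order and not to distance, with the genes of the set of 10 in orange, others in grey and an asterisk where the adjusted p was below 0.05. Apoa1, Apoc3 and Apoa4 rise between neighbours within -0.15 and 0.29, apart from Apoa5 at -0.23, and Apoc2, Apoc1 and Apoe rise beside genes between -0.71 and 0.07.

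Promoter sequences are shown for Apoa1 and Apoa4, which rose within the chromosome 9 cluster, and for Apoa5, its dim member that did not pass. Those of Apoh, with the smallest adjusted p, and Apob, with the highest signal, are also shown. They are the 250 bases before the annotated start, from RefSeq on GRCm38.p6, written 5′ to 3′ along the transcribed strand. For Apob only the 202 bases outside the annotated gene are given. Capitals mark CAAAG, the core of sites bound by HNF4 receptors, and TGTTTNC, the core of sites bound by FOXA factors, each on either strand.
Apoa1, chr9:46228380-46228629, plus strand: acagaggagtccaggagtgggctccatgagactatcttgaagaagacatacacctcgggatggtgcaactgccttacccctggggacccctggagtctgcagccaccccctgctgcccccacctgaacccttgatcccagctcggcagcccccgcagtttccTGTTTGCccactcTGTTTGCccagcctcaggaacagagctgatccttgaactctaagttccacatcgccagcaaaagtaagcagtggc
Apoa4, chr9:46240594-46240843, plus strand: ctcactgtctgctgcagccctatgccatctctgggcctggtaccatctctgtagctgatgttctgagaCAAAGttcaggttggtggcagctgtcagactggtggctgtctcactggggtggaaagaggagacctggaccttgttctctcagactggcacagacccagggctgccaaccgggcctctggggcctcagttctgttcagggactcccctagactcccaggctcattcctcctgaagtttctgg
Apoa5, chr9:46268358-46268607, plus strand: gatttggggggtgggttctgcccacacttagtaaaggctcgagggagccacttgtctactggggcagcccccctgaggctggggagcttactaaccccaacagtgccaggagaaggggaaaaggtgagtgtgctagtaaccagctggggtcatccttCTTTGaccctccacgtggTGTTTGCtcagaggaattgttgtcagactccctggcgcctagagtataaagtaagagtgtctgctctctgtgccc
Apoh, chr11:108395047-108395296, plus strand: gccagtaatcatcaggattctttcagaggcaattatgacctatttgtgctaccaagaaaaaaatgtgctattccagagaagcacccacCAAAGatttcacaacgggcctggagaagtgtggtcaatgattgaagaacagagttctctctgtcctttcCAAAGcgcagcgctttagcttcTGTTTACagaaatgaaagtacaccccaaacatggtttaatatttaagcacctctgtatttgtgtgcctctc
Apob, chr12:7977427-7977628, plus strand: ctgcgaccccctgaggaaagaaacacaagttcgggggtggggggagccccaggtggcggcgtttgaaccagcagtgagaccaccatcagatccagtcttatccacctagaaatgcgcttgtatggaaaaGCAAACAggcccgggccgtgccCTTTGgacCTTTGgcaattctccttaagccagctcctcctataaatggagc

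The promoter table held windows for 8 of the 10 genes, with Apoc1 and Apoc3 not among them. Apoa1 has 2 matches to TGTTTNC, beginning 88 and 75 bases before the end of its window, and none to CAAAG. Apoa5 has 1 match beginning 75 bases before the end and Apoh has 1 at 71 bases. Over the 12 windows of the 8 genes, of which some overlap, 7 held TGTTTNC, beside 17.8% of 32851 mouse promoter windows, each searched over its full 250 bases, and 7 held CAAAG, beside 48.6%. The TATA box TATAAA was in 5 of the 12 windows, beside 12.4% of all windows, the nuclear receptor half-site AGGTCA in 2, beside 14%, and the HNF1 half-site GTTAAT in 1, beside 6.43%. The genes with TGTTTNC were Apoa1, Apoa2, Apoa5, Apob, Apoh and Apom. The signals of Apoa5 and Apom were too dim to show whether their transcripts changed. Any link between these motifs and the changes was not tested. All motifs were searched on both strands, and matches to CAAAG and TGTTTNC can share letters only at their ends. The counts cover whole windows, including bases inside annotated genes. For Apoe, and for 1 of the 2 windows of Apoa2, no stretch outside the annotated gene was available. Matches in such windows include the only HNF1 half-site, in Apoe, and the FOXA core of Apoa2. The counts over the 12 windows are therefore not limited to bases before an annotated start. All are matches of letters and not measured sites.

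The genes of FOXA factors went in different directions. Foxa3 rose by 0.73 ± 0.0668 (limma adjusted p = 9.17e-05), Foxa1 stood at -0.70 ± 0.0794 (adjusted p = 0.000303) and Foxa2, not called, at 0.03 ± 0.0585 (adjusted p = 0.769). Of 32 measured genes of transcription factors known to act on apolipoprotein genes, 14 rose and 3 fell, with a median of 0.18. Over all genes 10.4% were called higher and 10.4% lower, so the falls were near that share. At an unadjusted limma p below 0.05, 16 were higher and 4 lower. Hnf4a, itself one of the hepatocyte markers, read 9.0 ± 0.0511 in wildtype and 9.44 ± 0.0402 in knockout cells (SD, n = 4), a log2 fold change of 0.45 ± 0.0547 (limma adjusted p = 0.000466).

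The 4 factor genes with the smallest adjusted p all rose. Mlxipl, the carbohydrate response factor, rose by 1.28 ± 0.0964, Thrb, a thyroid hormone receptor, by 1.18 ± 0.0922 and Creb3l3, a membrane-bound factor of the fasting liver that acts on Apoa4, by 1.06 ± 0.0607. Rxra, the partner of many nuclear receptors, rose by 0.76 ± 0.0678 (limma adjusted p of the 4 at most 7.35e-05). The 3 that fell, named after their values were seen, were Foxa1, Cebpb at -0.43 ± 0.0761 and Srebf2, the activator of cholesterol synthesis, at -0.48 ± 0.0733.

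Apolipoproteins outside the 10 were mixed. Of 7 measured, 3 rose and 1 fell, beside 10.4% of all genes each way, with a median log2 fold change of 0.25. Saa4, the constitutive serum amyloid A of HDL, read 6.45, 6.59, 6.74 and 6.65 in wildtype and 8.96, 9.09, 8.83 and 9.16 in knockout arrays. Its rise of 2.40 ± 0.0916 (limma adjusted p = 9.62e-07) stood beside 2.20 for Apoa4, and without knockout replicate 4 the values were 2.35 for Saa4 and 2.38 for Apoa4. Apoc2, the cofactor of lipoprotein lipase, rose by 0.87 ± 0.0742 and Apof by 0.74 ± 0.0878.

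Clu, which encodes clusterin, also called apolipoprotein J, stood at -0.17 ± 0.0496 (limma adjusted p = 0.0431). The call was lost when any single array of the 8 was left out (adjusted p 0.0700 to 0.109, change -0.18 to -0.16), and Clu stood at -0.03 once the median change of the genes around it was taken off. In the apolipoprotein L family, intracellular proteins that share the name but not the role in plasma, 1 of 12 rose, Apol7e (limma adjusted p = 0.00452), and 0 fell at an adjusted or unadjusted p of 0.05. That count of rises was near the 10.4% of all genes called higher. Apol7e was above 4.08 only on the 4 knockout arrays, so no size is given, and only 1 of the 12 genes had a median above that level. Without knockout replicate 4 the count of rises was 2.

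Genes for the assembly and export of apolipoprotein B particles rose nearly as a group. Of 12 measured, 11 rose and 0 fell (limma, with 0 lower also at an unadjusted p below 0.05), beside 10.4% of all genes each way. The median was 0.47, and the count of rises was 10 when any 1 array was left out. Mttp, the transfer protein that loads lipid onto apolipoprotein B, read 4.68 ± 0.108 in wildtype and 6.08 ± 0.0952 in knockout cells (SD, n = 4). Its log2 fold change was 1.39 ± 0.0762, and that of the much brighter Apob signal was 0.34. Dgat2, which makes triglyceride, rose by 0.50 ± 0.0570, Sar1b, a GTPase of the vesicles that leave the endoplasmic reticulum, by 0.48 ± 0.0538 and Mia2, which helps load large cargo at its exit sites, by 0.48 ± 0.0570. Dgat1 was the member that did not pass (0.20 ± 0.0903).

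Apob mRNA can be edited to encode a shorter protein, and genes of the editing complex were split. Of 6 measured, 2 rose and 2 fell, beside 10.4% of all genes each way, with a median of -0.11. At an unadjusted limma p below 0.05, 2 were higher and 3 lower. The added gene was Rbm47 at -0.18 ± 0.0621 (limma adjusted p = 0.0712). A1cf, the RNA-binding partner of the editing enzyme, rose by 1.56 ± 0.101 and Apobec1, the deaminase, by 0.60 ± 0.0882 (limma adjusted p = 1.2e-05 and 0.00124). Khsrp stood at -0.21 ± 0.0566 (adjusted p = 0.0280), a call lost without wildtype replicate 3 (-0.21) or 4 (-0.18), or knockout replicate 1 (-0.22), 2 (-0.20) or 4 (-0.21). Hnrnpab stood at -0.20 ± 0.0539 (adjusted p = 0.0312), a call lost without wildtype replicate 2 (-0.18), 3 (-0.20) or 4 (-0.19), or knockout replicate 1 (-0.17), 2 (-0.20) or 3 (-0.19). The array gives the amount of Apob transcript and not the share that is edited.

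Receptors that take up apolipoprotein-bearing particles went both ways. Of 14 measured genes, 5 rose and 3 fell, beside 10.4% of all genes each way, with a median of 0.07. At an unadjusted limma p below 0.05, 5 were higher and 4 lower. Vldlr, which binds VLDL through apolipoprotein E, rose by 1.04 ± 0.0538, Lrp1, a remnant receptor of hepatocytes, by 0.65 ± 0.0538 and Scarb1, the HDL receptor, by 0.42 ± 0.0613. Cd36, a fatty acid and lipoprotein receptor, rose by 1.00 ± 0.0838. The 3 lower genes, named after their values were seen, were Lrp8, another apolipoprotein E receptor, at -0.48 ± 0.0832, Lsr, the lipolysis-stimulated receptor, at -0.34 ± 0.0637 and Lrpap1, a chaperone of this receptor family, at -0.22 ± 0.0636 (limma adjusted p = 0.0353). The Lrpap1 call was lost without any 1 array other than wildtype replicate 1 (-0.24 to -0.19), and its change was -0.06 with the median of surrounding genes taken off. Lsr stood at -0.23 with its probe sets averaged (limma adjusted p = 0.0537).

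Enzymes and regulators that remodel lipoproteins in plasma were mostly higher. Of 13 measured, 8 rose and 1 fell, beside 10.4% of all genes each way, with a median of 0.40. The count of rises was 6 to 7 with 1 array left out. Lcat, which esterifies cholesterol on HDL with apolipoprotein A-I as cofactor, rose by 1.07 ± 0.0962. The gene of the HDL-bound paraoxonase Pon3 rose by 0.70 ± 0.0501 and Angptl8, an inhibitor of lipoprotein lipase, by 1.06 ± 0.0905. Pon1, a related paraoxonase, also passed (limma adjusted p = 0.00015), with means of 2.95 and 4.11 and only 2 knockout arrays above 4.08, so no size is given. Bmp1, the protease that matures apolipoprotein A-I, stood at -0.32 ± 0.0789 (limma adjusted p = 0.0184) and was named after its value was seen. The count of 1 lower gene was 0 without wildtype replicate 1, wildtype replicate 2 or knockout replicate 2.

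Of 5 ABC transporter genes, 3 rose and 0 fell in limma, beside 10.4% of all genes each way, with a median of 0.82. At an unadjusted limma p below 0.05, 1 was lower, Abcg1 at -0.24 ± 0.0998. Abca1, which passes cholesterol and phospholipid to lipid-poor apolipoprotein A-I, read 7.25 ± 0.0758 in wildtype and 8.53 ± 0.109 in knockout cells (SD, n = 4), a rise of 1.28 ± 0.0727. Abcg5 and Abcg8, which form the sterol pump into bile, rose by 0.82 ± 0.0865 and 0.91 ± 0.0788.

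**Figure D4:**
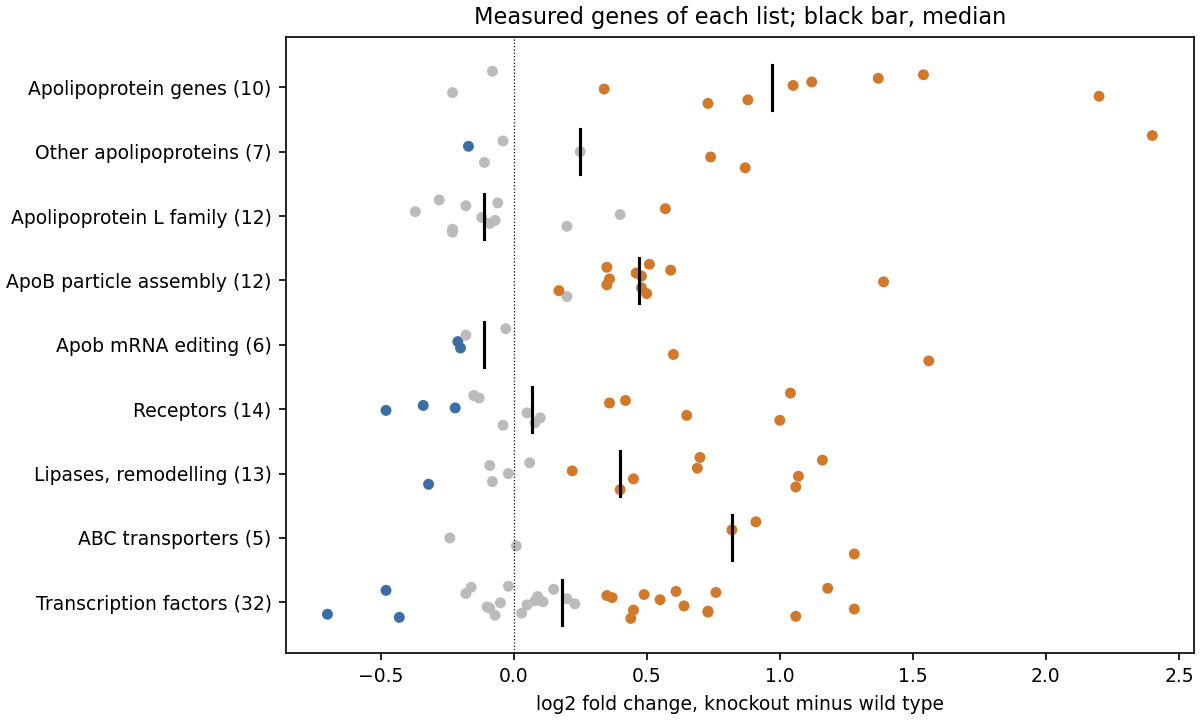
Log2 fold change (knockout minus wildtype) of each measured gene in 9 lists, with the number of genes in brackets, orange for called rises, blue for called falls, grey for genes that did not pass and a black bar at the median. The median is 0.97 for the apolipoprotein genes, 0.47 for assembly genes, 0.82 for ABC transporters and 0.07 for receptors.

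Over the 8 arrays the genes most like the mean profile of the 10 apolipoprotein genes, after each was centred and scaled, were Selenos, Rxra, Mtrf1, Nectin1 and Cyp2d10, with Pearson r between 0.994 and 0.997. The comparison covered 11383 brighter genes, of which 696 had r above 0.95, and it mainly measures how evenly a gene separates the 2 genotypes. Cyp2d10, a cytochrome P450, rose by 2.24 ± 0.131, Rxra by 0.76 ± 0.0678 and Nectin1 by 0.62 ± 0.0718. Mtrf1, a mitochondrial release factor gene on chromosome 14, the chromosome of Vwa8, rose by 0.54 ± 0.0639. Selenos, a selenoprotein of the endoplasmic reticulum, rose by 0.35 ± 0.0547 (limma adjusted p = 0.00193), a call lost when the mean of its probe sets was used (0.39, adjusted p = 0.0986).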

How the data were processed

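Total RNA of 8 AML12 cultures, 4 wildtype and 4 VWA8-null, was labelled and hybridised to Affymetrix mouse arrays, per the labels' protocols. The deposited values of the authors are log2 signals of 41345 probe sets. That scale was read from their range, 0.44 to 13.55, and neither label nor file states how background or array differences were treated. GEO's platform annotation gave 1 gene symbol for 23521 probe sets, several for 1814 and none for 16010. Probe sets with 1 symbol were reduced to 22180 genes by the highest mean over the arrays, which affected 1082 genes with more than 1, and 21991 genes matched RefSeq's GRCm38.p6 table by Entrez identifier. No further normalization or filter was applied.

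Genotype was fitted with limma 3.58.1 in R 4.3.3 (lmFit and eBayes), with Benjamini-Hochberg adjustment over all genes, a threshold of 0.05, and moderated standard errors. On simulated data of 22180 genes with 200 changed, the fit of the simulated knockout against wildtype recovered 52.4%, 89.6% and 100% of changes of 0.5, 1 and 2 on the log2 scale, and 10 of 173 calls were false. Far fewer genes were changed there than the 20.9% called in the data, so these rates need not hold for the real fit. Differences between clustered genes were tested by exact permutation of the arrays in Python 3.11.15. The summed signal of a marker list is the log2 of its summed linear values. The number of arrays limits the precision.

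The members and lists were chosen with earlier results of these data known. Named by rule were the 10, Vwa8 and the 5 genes most like the 10. From each gene list other than the cell markers came every gene that passed where there were 4 or fewer, otherwise the 4 with the smallest adjusted p. Hnf4a, Mttp, Lrp1, Scarb1, Abca1, Apobec1 and Apoc2 were named at any value. Other genes fell outside this rule and were named with their values in view. Among them were Foxa2, Foxa3, Dgat1, Abcg1, Rbm47, Krt7, Cftr, Cd14 and Igf2. Alternatives, 17 for the fit of all genes, were array weights, a fit with the replicate block, variances that follow the signal (trend and robust), centring or quantile normalization of the arrays, tests without the dimmest 25% or 50% of genes, averaged probe sets, subtracting the median change of 30 neighbours on each side, and leaving out each array. Genes without a probe set of their own, such as Apoc4, were not analysed here.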

Additional observations from a re-analysis of the deposited data

Results flagged for a closer look

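Of 22 groups of 4 arrays checked, for the 10 apolipoprotein genes and Vwa8 in each genotype, 2 had an array far from the other 3, where chance gives about 1 in 20. In wildtype cells Apoc3 was lowest in replicate 1, at 5.32, with the others between 5.70 and 5.75. In knockout cells Apom was lowest in replicate 3, at 3.20, with the others between 3.39 and 3.40, all in the dim range.

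A probe set assigned to both Apoc4 and Apoc2 entered no comparison, because it names no single gene, and it was higher in the knockout. Its log2 signal was 6.65, 6.41, 6.74 and 6.69 in wildtype and 7.70, 7.56, 7.29 and 7.04 in knockout arrays. The groups did not overlap, and the difference was 0.77 (exact two-sided permutation p = 0.0286). The probe set assigned to Apoc2 alone rose by 0.87.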

How the results depend on the processing

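The counts of 8 apolipoprotein genes higher and 0 lower held under all 17 alternatives, and of 1511 alternative values of 92 results 2 reversed, both of the uncalled Foxa2 (-0.16 with neighbours subtracted and -0.0 without wildtype replicate 2, in a range of -0.0 to 0.06 with 1 array left out). The count at least 2-fold higher was 3 to 5 with 1 array left out. The median of the 10 was 1.09 without the dimmest 50% of genes, which removed Apoa5 and Apom, and 0.92 to 1.02 with 1 array left out. The replicate numbers did not pair the arrays (correlations of same-numbered deviations 0.059, -0.002, 0.022 and 0.026). With the replicate block 1890 genes were higher and 1827 lower, against 2314 and 2312, and the 6 shifts within the chromosome 9 cluster (-1.47, 0.96, -0.39, 2.43, 1.08 and -1.35) had an adjusted p of 0.146, where the smallest exact permutation p possible is 0.125. With 1 array left out these shifts ran from -1.65 to -1.18 (Apoa1 minus Apoa4), 0.84 to 1.04 (Apoa1 minus Apoa5), -0.48 to -0.28 (Apoa1 minus Apoc3), 2.14 to 2.59 (Apoa4 minus Apoa5), 0.70 to 1.26 (Apoa4 minus Apoc3) and -1.47 to -1.12 (Apoa5 minus Apoc3). The count of lower genes among other apolipoproteins, 1 (Clu), was 0 with the block, with median centring, with neighbours subtracted and without any 1 array (0 to 0). Among editing genes the count of 2 lower was 0 with the block, 0 with centring, 1 with neighbours subtracted and 0 to 2 with 1 array left out. The 1 lower remodelling gene was lost with neighbours subtracted (0), and the count was 0 to 1 with 1 array left out. The 1 higher apolipoprotein L gene was lost without the dimmest 50% of genes (0), and the count was 1 to 2 with 1 array left out. Of 60 neighbouring genes 5 were lower, and 8 with trend and robust variances, 8 without the dimmest 25% of genes and 10 without the dimmest 50%, while the 4 higher were 3 to 6 over the alternatives. The cause of these shifts was not tested.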

Other observations

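The 4 apolipoprotein genes that lie alone on their chromosomes were also set beside their 10 nearest measured genes. Around Apoa2 on chromosome 1, 1 neighbour rose (Ppox, an enzyme of haem synthesis) and 0 fell, with a median log2 fold change of 0.01 against 0.88 for Apoa2. Around Apob on chromosome 12, 0 rose and 2 fell (Hs1bp3 and Rhob, a small GTPase), with a median of -0.08. Around Apoh on chromosome 11, 2 rose (Helz, a helicase, by 0.17 with a limma adjusted p of 0.0434, a call lost when any 1 array was left out, and Prkca, protein kinase C alpha, by 0.55) and 0 fell, against 1.54 for Apoh. Around Apom on chromosome 17 limma called 0 of 10 in either direction, with a median of -0.06. Over all 6 loci 4 of 60 neighbours rose and 5 fell, where 10.4% of all genes were called higher and 10.4% lower. Their names were picked with the values in view.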
